A study of Mus musculus with 6 samples.

Results

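Expression in C2C12 myotubes given siRNA against Plin2 was compared with expression in myotubes given a scrambled siRNA. The comparison used all 6 arrays of the series, 3 with Plin2 siRNA and 3 with scrambled siRNA, paired by treatment. Of the 35556 probe sets on the array, 21789 were tied to 1 gene symbol. A gene with more than 1 probe set was read from the one with the highest mean, which gave 19938 genes. C2C12 is a mouse myoblast line whose cells fuse into multinucleated myotubes when serum is lowered. Every culture was transfected with siRNA at 10 nM using Lipofectamine and then kept for 20 h in albumin (BSA) alone, in 200 µM oleate or in 200 µM palmitate, the fatty acids being carried at 2.5 molecules per BSA. From each culture 100 ng of RNA, with integrity numbers above 8, went onto 1 whole-transcript array, so each condition had 1 array.

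The arrays formed 3 pairs, each made of a Plin2 siRNA array and the scrambled array of the same treatment. The labels name 1 siRNA against Plin2, so loss of Plin2 and any action of that siRNA on other transcripts cannot be told apart. Nothing in the labels says that the 6 cultures were prepared separately, so the p-values measure the spread between these arrays only. Medians of the arrays over all probe sets lay between 4.94 and 5.02 on the log2 scale. Across genes, arrays of the same siRNA correlated at 0.991 to 0.994 and arrays of different siRNAs at 0.987 to 0.991.

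Perilipin 2 belongs to a family of proteins that coat lipid droplets, the organelles in which cells keep triglyceride and cholesterol ester. It covers the droplet surface and limits the access of lipases to the stored lipid. In skeletal muscle it is the abundant droplet coat of most fibres, its level follows the supply of fatty acids, and the protein is degraded when no droplet holds it.

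Plin2 was measured first, as the check of the labels. The log2 values of the scrambled arrays were 9.29 (BSA), 10.03 (oleate) and 10.10 (palmitate), and those of the Plin2 siRNA arrays, in the same order, 6.95, 7.63 and 7.45. Every Plin2 siRNA array lay below every scrambled array, and within each siRNA the BSA array was the lowest. The change was -2.47 (SE 0.08, 95% interval -2.64 to -2.29, n = 3 pairs, limma adjusted p = 2.32e-08), which is 5.53-fold lower. All changes that follow are log2 differences, Plin2 siRNA minus scrambled, over the same 3 pairs, and "rose" and "fell" are used only where the adjusted p was under 0.05.

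Expression changed widely. Of the 19938 genes, 3412 passed the threshold (17.1%), of which 1657 rose (8.31%) and 1755 fell (8.8%). Most changes were small: the median size among genes that passed was 0.412, or 1.33-fold, and 2275 changed by less than 0.5. At least 1 log2 unit separated the siRNAs for 79 genes that rose and 118 that fell. All 3 Plin2 siRNA arrays lay above all 3 scrambled arrays for 3057 genes (15.3%) and below them for 2997 (15%). The share that passed followed the expression level. Among the third of genes with the lowest means, up to 4.48, 97 passed (1.46%). In the middle group, up to 7.29, 1004 passed (15.1%), and among the highest 2311 (34.8%). Of the 6646 genes in the highest group, 1136 rose and 1175 fell. A list of highly expressed genes thus has a higher background than the shares of all genes given beside it below.

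**Figure D1:**
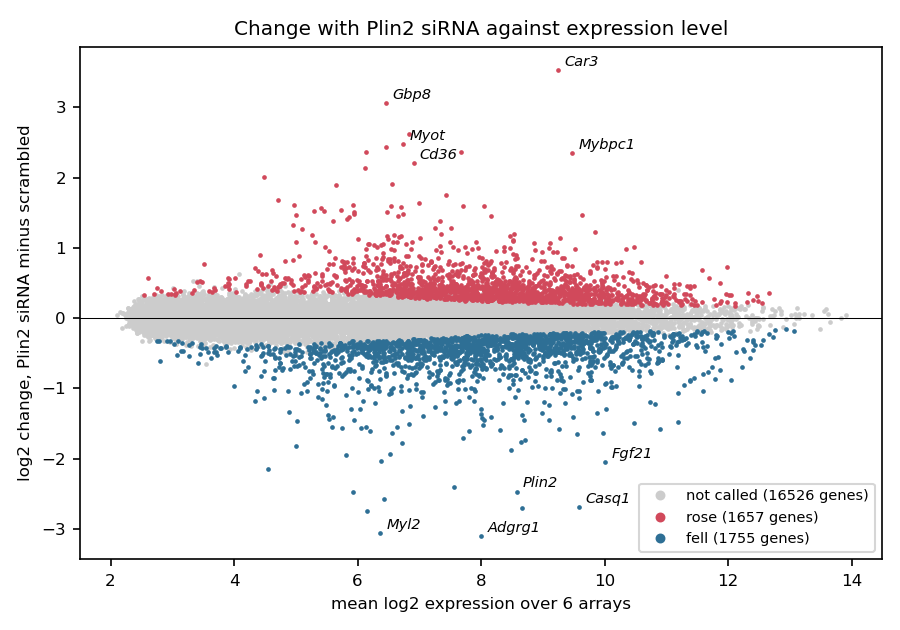
Log2 change with Plin2 siRNA (vertical axis) against mean log2 expression over the 6 arrays (horizontal axis), 1 point per gene, red for the 1657 genes that rose, blue for the 1755 that fell and grey for the rest. Genes that passed are few below a mean of 4.48, and the largest changes in both directions lie at middle and high levels.

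The siRNA change was then compared between the treatments. Of the genes that passed, 3401 had the same sign in all 3 pairs, against 9064 of all genes (45.5%). A call rests on the mean and spread of these same differences, so genes that passed nearly had to have 1 sign. Their count is therefore no measure of how alike the treatments were. Across all genes, pair differences correlated at 0.666 between BSA and oleate, 0.615 between BSA and palmitate and 0.561 between oleate and palmitate, from pairs that share no array. A term for a different siRNA change under fatty acid passed for 0 of 21789 probe sets (0%) in limma, and 551 (2.53%) had an unadjusted p under 0.05. With 1 array per condition this term rests on 1 residual degree of freedom, so the count of 0 does not show that the treatments acted alike. Among the genes that passed, the palmitate pair held the largest of the 3 differences for 1400, the BSA pair for 1086 and the oleate pair for 926.

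The largest rise was that of Car3. The log2 expression of Car3, a carbonic anhydrase abundant in slow muscle and fat, was 7.43, 7.78 and 7.22 with scrambled siRNA (BSA, oleate and palmitate, in this order throughout) and 11.03, 11.08 and 10.90 with Plin2 siRNA. Its 6 values fell into separate groups more than 3 log2 units apart, and the change was 3.53 (SE 0.08, limma adjusted p = 1.70e-09). Of 16 carbonic anhydrases, Car3 and Car2 (2.14) rose and 0 fell. Other large rises included the guanylate-binding protein Gbp8 (3.06), the serpin Serpinb6b (2.62), the neurite-promoting protein Nrn1 (2.44) and the pentraxin Ptx3 (1.75). The axon guidance receptor Robo2 rose by 1.90, the dynein chain Dync1i1 by 1.63 and the myogenic membrane protein Itm2a by 1.61. The gap junction gene Gjd4 rose by 1.62 and the galactosyltransferase B3galt2 by 2.01, both from scrambled levels between 3.15 and 4.31, near the low end of the array.

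The largest fall was that of Adgrg1, an adhesion receptor involved in myoblast fusion. It stood at 9.89, 9.08 and 9.68 with scrambled siRNA and at 6.65, 6.32 and 6.40 with Plin2 siRNA. It was lower by about the same amount in each treatment (-3.10, SE 0.10, limma adjusted p = 2.32e-08). The protease gene Prss46 fell by 2.74, the kinase gene Sbk2 by 2.57, the membrane dipeptidase Dpep1 by 2.47 and the tubulin-binding Tppp3 by 2.40. The Ras-associated protein Rassf2 fell by 2.04, the retinol dehydrogenase Rdh5 by 1.87, the lubricant proteoglycan Prg4 by 1.81 and the keratin Krt80 by 1.71.

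**Figure D2:**
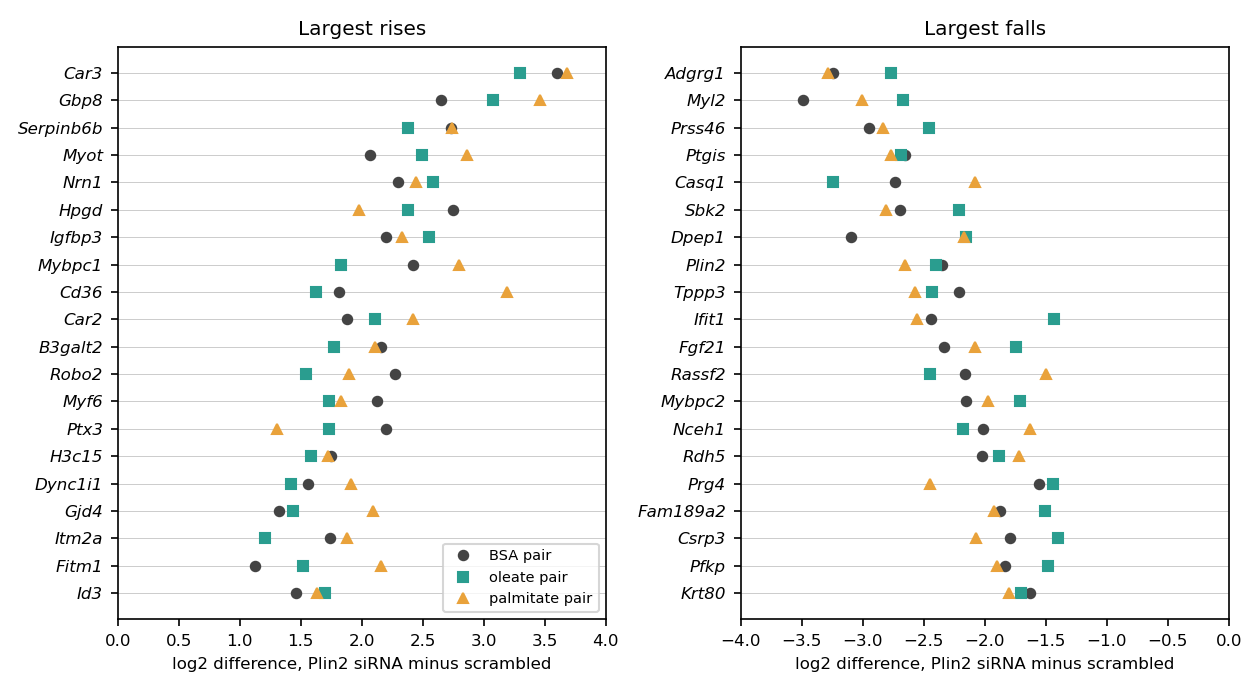
Log2 difference, Plin2 siRNA minus scrambled, in the BSA (circle), oleate (square) and palmitate (triangle) pair for the 20 genes with the largest rises (left) and the 20 with the largest falls (right). All points of a gene lie on 1 side of 0, as the choice of the genes required, and for Cd36 and Prg4 the palmitate pair lies apart from the other pairs, at 3.19 and -2.44.

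Few genes of the lipid droplet other than Plin2 passed. Of 25 measured, 2 rose and 2 fell (8% each, close to the 8.31% and 8.8% of all genes), and their median change was 0.01 (0.0044 over all genes). Without a BSA array 0 fell. The other perilipins did not pass. Plin3, a coat protein expressed in most tissues, stood at 9.37, 9.41 and 9.32 with scrambled siRNA and at 9.42, 9.31 and 9.41 with Plin2 siRNA (0.01, SE 0.07, limma adjusted p = 0.943). Its arrays overlapped fully, and it was the only perilipin besides Plin2 with a level above 5.2 in any array. Plin1 (0.21), Plin4 (-0.11) and Plin5 (0.16) had levels between 4.32 and 5.14.

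The droplet gene with the largest change was Fitm1, a muscle protein of the endoplasmic reticulum that partitions triglyceride into droplets. It stood at 5.93, 5.70 and 5.60 with scrambled siRNA and at 7.05, 7.21 and 7.76 with Plin2 siRNA, with pair differences of 1.12, 1.52 and 2.16. The groups did not overlap, and Fitm1 rose by 1.60 (SE 0.16, limma adjusted p = 4.15e-05). Its relative Fitm2 fell by 0.39, the droplet dehydrogenase Hsd17b13 fell by 0.42, and Spg20, which encodes spartin, rose by 0.73. The call of Fitm2 was lost without a BSA array, and that of Hsd17b13 without an array of any 1 treatment. The lipases and their partners did not pass: Pnpla2, the main triglyceride lipase, stood at 0.10 (SE 0.08), its activator Abhd5 at 0.11 (SE 0.07), its inhibitor G0s2 at -0.26 (SE 0.10), Lipe at 0.01 and Mgll at -0.12.

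Of 17 triglyceride synthesis genes, 4 fell (23.5%) and 0 rose. Their median was -0.15, and -0.04 without a BSA array. Gpat3, which adds the first fatty acid to glycerol phosphate, fell from 7.29, 7.72 and 7.78 to 6.24, 6.71 and 6.47 (-1.12, SE 0.09, limma adjusted p = 1.34e-05). All 3 of its Plin2 siRNA values lay under the scrambled ones. Agpat4 (-0.82) and Agpat2 (-0.55), which add the next chain, and Dgat2 (-0.60), which makes triglyceride, fell as well. Nceh1, an enzyme that hydrolyses cholesterol esters, fell by 1.94 (SE 0.12, limma adjusted p = 1.29e-06).

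**Figure D3:**
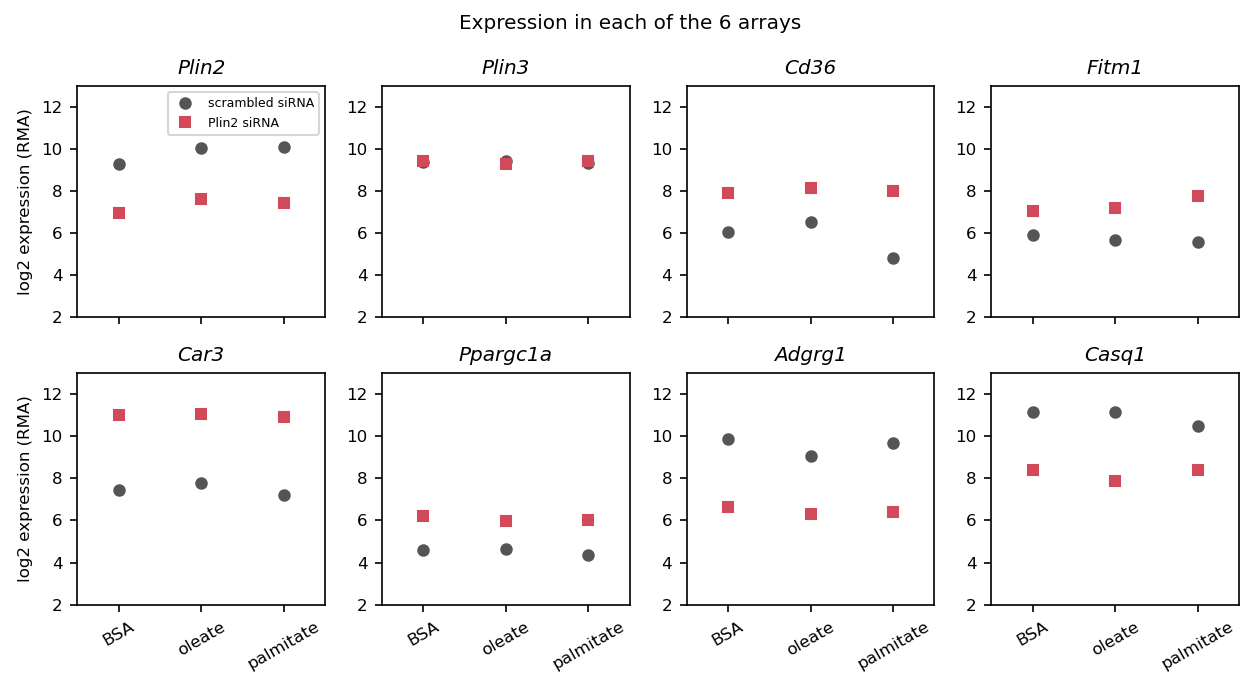
Log2 expression of 8 genes in each of the 6 arrays, by treatment (horizontal axis), grey circles for scrambled and red squares for Plin2 siRNA. Plin3 overlaps between siRNAs near 9.4, whereas the other 7 genes, Plin2 among them, show no overlap.

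Genes that bring fatty acids into the cell went both ways. Of 25 measured, 3 rose (12%) and 9 fell (36%), the latter 5 without a BSA array. Cd36, the fatty acid translocase, stood at 6.07, 6.51 and 4.82 with scrambled siRNA and at 7.89, 8.13 and 8.01 with Plin2 siRNA. The scrambled palmitate array was the lowest by far, while the Plin2 siRNA arrays lay close together, so the pair differences were 1.82, 1.62 and 3.19 (change 2.21, SE 0.23, limma adjusted p = 5.53e-05). The term for a different change under fatty acid was 0.59 for Cd36 (SE 0.39) and did not pass. Lpl, which releases fatty acids from lipoproteins, rose by 0.86. The cytosolic carrier Fabp3 fell by 1.45 and by 1.39 on its other probe set, the activating enzymes Acsl5 and Acsl4 fell by 0.54 and 0.47, and the caveolar protein Cav1 fell by 0.54.

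Many genes of fatty acid burning and respiration rose. In beta-oxidation 10 of 22 rose (45.5% against 8.31%) and 0 fell, with a median of 0.18. The carnitine carrier Slc25a20, the gate through which acylcarnitines enter the matrix, stood at 8.90, 9.06 and 9.06 with scrambled and at 9.41, 9.60 and 9.71 with Plin2 siRNA. It was higher in every Plin2 siRNA array (0.56, SE 0.07, limma adjusted p = 0.000162). Of 70 subunits and assembly factors of oxidative phosphorylation, 29 rose (41.4%) and 1, the complex I subunit Ndufb7, fell (-0.19), a call lost without a BSA or a palmitate array. Their median was 0.19, made of 0.13 in the BSA, 0.19 in the oleate and 0.27 in the palmitate pairs. Cox8a and its muscle isoform Cox8b, both of complex IV, rose by 0.58 and 0.54, and the complex I subunit Ndufa3 rose by 0.67; without a palmitate array Cox8b stood at 0.35. Of 17 tricarboxylic acid cycle genes 4 rose, namely Idh3a (0.32), Idh3g (0.23), Pdha1 (0.24) and Pdhb (0.25), and 2 of the 4 did so without a BSA or a palmitate array. Without a palmitate array Pdhb stood at 0.15.

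Among 24 regulators of oxidative metabolism, 3 rose (12.5%) and 0 fell (1 without an oleate or a palmitate array). Ppargc1a, the coactivator of mitochondrial biogenesis, was low with scrambled siRNA (4.59, 4.65 and 4.34) and stood at 6.20, 5.96 and 6.0 with Plin2 siRNA. The siRNAs were separated by more than 1 log2 unit in every treatment (1.52, SE 0.12, limma adjusted p = 7.46e-06), and its other probe set gave 1.82. Prkaa2, a catalytic subunit of the AMP-activated kinase, rose by 1.08 (SE 0.08), and Ppara, a receptor for fatty acids, rose by 0.54 from a level under 5 and lost its call without a BSA array. The mitochondrial chaperones Hspd1 and Hspe1 rose by 0.41 and 0.48, and the mitochondrial antioxidant enzymes Sod2 and Prdx3 by 0.34 and 0.31.

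Genes of glucose use fell more often than they rose. Of 24 glycolysis and lactate genes, 10 fell (41.7% against 8.8%) and 2 rose, and the median was -0.21. The platelet-type phosphofructokinase Pfkp stood at 9.66, 9.47 and 9.62 with scrambled and at 7.83, 7.99 and 7.72 with Plin2 siRNA (-1.74, SE 0.09, limma adjusted p = 3.56e-07). The glucose transporter Slc2a1 (-1.35), hexokinase Hk2 (-1.19) and the lactate exporter Slc16a3 (-1.42) fell in parallel. The 2 that rose act on the fate of pyruvate: Ldhb, the lactate dehydrogenase subunit of oxidative tissue, rose by 1.58 and by 1.11 on its other probe set, and Pdk2, which inhibits pyruvate dehydrogenase, rose by 0.91. In glycogen metabolism 3 of 20 rose (1 without a palmitate array) and 3 fell, among them the glycogen phosphatase Epm2a (0.78) and glycogen synthase Gys1 (-0.29, but -0.18 and not passing without a BSA array).

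Of 38 insulin signalling genes 4 rose (10.5% against 8.31% of all genes) and 6 fell (15.8% against 8.8%). Without a BSA array 2 rose, and without an oleate array 9 fell. Tbc1d1, the Rab regulator that holds back glucose transporter vesicles, fell from 9.50, 9.23 and 9.31 to 8.22, 8.09 and 8.14 (-1.20, SE 0.07, limma adjusted p = 1.12e-06), while its relative Tbc1d4 stood at -0.03 (SE 0.11) at a lower level. The insulin-regulated transporter Slc2a4 fell by 0.86, from 6.66, 6.78 and 5.92 to 5.91, 5.39 and 5.49, the scrambled palmitate array being the closest to the Plin2 siRNA arrays. Trib3, an inhibitor of Akt, fell by 0.65, and the insulin receptor Insr by 0.34. Irs1 (0.52), the regulatory subunit Pik3r1 (0.34) and Foxo1 (0.39) rose, whereas of the catalytic subunits Pik3cb fell by 0.99 and Pik3ca rose by 0.20. The other probe set of Irs1 gave 0.28 and did not pass. Akt1 (0.16), Akt2 (-0.11) and Irs2 (0.32) did not pass. The calls of Pik3r1 and of Rptor, a subunit of the mTOR complex (-0.37), were lost without a BSA array, and that of Pik3ca without an array of any 1 treatment.

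Lipid synthesis lists held more genes that fell than rose. Among 20 genes that build, lengthen or desaturate fatty acids, 9 fell (45%) and 0 rose, with a median of -0.23. The elongase Elovl5 fell by 0.73, from 9.96, 9.73 and 10.10 to 9.21, 9.07 and 9.31. The desaturase Fads2 was lower in each pair (-0.83, SE 0.08), but its groups overlapped, since it was low in the oleate arrays of both siRNAs (8.95 and 8.28). In cholesterol synthesis 9 of 23 fell (39.1%) and 1 rose, the regulator Srebf2 (0.20), whose call was lost without an array of any 1 treatment. The median was -0.45 in the BSA pair, -0.20 in oleate and -0.12 in palmitate. Sqle fell by 0.52, Sc5d by 0.48, Insig1 by 0.46 and Fdps by 0.42, and for the last 3 of these genes the siRNA groups overlapped. Compared without the pairing by treatment, Fads2, Sc5d, Insig1 and Fdps did not pass. Of 25 sphingolipid genes, 4 fell, led by the ceramide kinase Cerk (-0.88), and 2 rose, Sphk2 (0.43, a call lost without a palmitate array) and the ceramidase Asah1 (0.33). Without a BSA array 1 of the 4 fell.

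Most genes of the integrated stress response fell. ATF4 is a transcription factor made when amino acids run short or the endoplasmic reticulum is under stress, and it turns on genes of amino acid supply. Of 29 genes listed as its targets or as serine synthesis genes, 19 fell (65.5% against 8.8%) and 0 rose. The median was -0.44 (0.0044 over all genes), made of -0.52, -0.23 and -0.43 in the BSA, oleate and palmitate pairs, and 15 to 20 fell when any 1 array was left out. The hormone Fgf21 stood at 11.27, 10.85 and 11.00 with scrambled and at 8.94, 9.11 and 8.92 with Plin2 siRNA (-2.05, SE 0.09, limma adjusted p = 2.09e-07). The groups did not overlap, and within each siRNA the arrays lay close together. Atf3, a related factor, stood at 6.68, 6.71 and 7.61 and then at 5.32, 5.44 and 5.44 (-1.60, SE 0.15), with the scrambled palmitate array the highest. The mitochondrial folate enzyme Mthfd2 fell by 1.07 and the stress protein Nupr1 by 0.84.

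Promoter sequence was read from RefSeq (GRCm38.p6) for 250 bases before and 50 after the start of 15562 of the genes. The letters TTGCATCA, the core of the amino acid response element, were searched on both strands. They occurred in 0.823% of all promoters, in 1.41% of those of genes that fell and in 0.464% of those of genes that rose. The ATF4 list, drawn from genes already known as its targets, held them in 29.6%: 6 of the 18 genes that fell and had a promoter held them, and so did 2 of 9 that did not pass. The stretches around them in the list members that fell are shown because these genes are listed as ATF4 targets. The matching letters are in capitals (TGATGCAA is the same element on the other strand). Whether these matches are the sites used by ATF4 was not tested.
Fgf21: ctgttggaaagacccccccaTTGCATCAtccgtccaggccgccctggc
Atf3: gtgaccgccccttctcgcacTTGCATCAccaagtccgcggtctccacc
Nupr1: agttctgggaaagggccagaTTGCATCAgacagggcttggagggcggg
Slc7a11, first: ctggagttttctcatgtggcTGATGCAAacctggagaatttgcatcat
Slc7a11, second: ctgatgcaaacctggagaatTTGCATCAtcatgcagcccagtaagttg
Chac1: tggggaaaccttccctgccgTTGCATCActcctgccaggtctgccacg
Herpud1: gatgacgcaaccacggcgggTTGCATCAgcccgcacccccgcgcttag
The Fgf21 stretch lies at chr7:45615602-45615649 and that of Nupr1 at chr7:126625553-126625600, both on the minus strand. That of Atf3 lies at chr1:191183416-191183463 on the minus strand, that of Chac1 at chr2:119351029-119351076 and that of Herpud1 at chr8:94386297-94386344 on the plus strand. The Slc7a11 stretches overlap, at chr3:50443652-50443699 and chr3:50443633-50443680 on the minus strand. The element began 139 bases before the annotated start in Fgf21, 110 in Atf3 and in Nupr1, 193 in Chac1, 112 in Herpud1, and 66 and 47 in Slc7a11. Slc7a11, the cystine importer, fell by 0.71, the glutathione-degrading Chac1 by 0.59 and the membrane protein Herpud1 by 0.44. A match of letters is a description of these windows and not evidence that ATF4 bound there.

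Other stress lists also held genes that fell. Of 18 aminoacyl-tRNA synthetases, which charge tRNAs with amino acids, 9 fell (50%) and 1 rose, but only 4 fell without a BSA array. Vars fell by 0.62, Wars by 0.50 and Cars by 0.45. Of 32 chaperones and secretory genes of the endoplasmic reticulum, 9 fell (28.1%; 5 without a BSA array) and 0 rose, including Ostc, a subunit of the oligosaccharyltransferase (-0.78), the co-chaperone Dnajc3 (-0.66) and the sensor Atf6 (-0.39). Among 17 heat shock genes the small chaperones of muscle fell, namely Hspb7 (-1.29), Hspb8 (-0.75) and Hspb1 (-0.60), and 6 fell in all (3 without a BSA array). Hypoxia-inducible genes fell in 7 of 17 cases (41.2%) with 0 rising, among them the prolyl hydroxylase Egln3 (-1.20) and Vegfa (-0.60). Of 26 antioxidant genes 7 fell, with Nfe2l2, the master regulator of that response, at -0.62, and 5 rose, with the metallothionein Mt1 at 0.51. Without a BSA array those counts were 3 and 3.

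Growth arrest, cell cycle and immediate early lists each held more genes that fell than rose. In the cell cycle list 22 of 52 fell (42.3%) and 2 rose. The primase Prim1 fell from 6.65, 7.06 and 6.57 to 5.69, 5.83 and 5.78 (-0.99, SE 0.11), the replicative helicase subunit Mcm6 by 0.90, the ribonucleotide reductase subunit Rrm2 by 0.82 and the factor E2f2 by 0.67. The 2 that rose were the cyclin Ccnd3 (0.74), which is kept in differentiated muscle, and the inhibitor Cdkn1b (0.25), whose call was lost without a BSA or an oleate array. Of 20 p53 targets 8 fell (40%), led by Gadd45a (-1.04), and 3 rose, led by Trp53inp1 (0.62). Of 30 immediate early genes, which respond within minutes to stimulation, 13 fell (43.3%) and 2 rose. Fos stood at 7.30, 7.73 and 7.68 and then at 6.73 in each of the 3 Plin2 siRNA arrays (-0.84, SE 0.10). Nr4a1 (-0.85) and the phosphatase Dusp1 (-0.80) fell, and Jun (0.28) and Egr1 (0.33) rose, both calls being lost without a BSA array, and Jun stood at 0.19 without an oleate array.

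Transcription factors of the muscle lineage rose in many cases. Of 29 measured, 15 rose (51.7%) and 3 fell (10.3%), with a median of 0.29. Of the 4 myogenic regulatory factors, which drive the muscle programme in sequence, Myf6 rose by 1.89, from 4.46, 5.15 and 4.51 to 6.58, 6.88 and 6.34. Myod1, already high, rose by 0.46 (11.26, 11.21 and 11.17 against 11.76, 11.62 and 11.65), and Myf5 rose by 0.63. Myog, which directs terminal differentiation, fell from 12.14, 12.04 and 12.08 to 11.41, 11.37 and 11.39 (-0.69, SE 0.05, limma adjusted p = 6.58e-06). Thus the early factors and the late factor Myf6 were higher and Myog lower in every pair. The Id proteins hold myogenic factors away from DNA. Id3 rose by 1.60 (SE 0.08), Id2 by 0.46 and Id1 by 0.42, and Id4 stood at 0.23 (SE 0.11). The letters CAGCTG, an E-box of the type that Myod1 binds, occurred in 18.4% of all promoter windows of 250 bases before to 50 after the start (RefSeq GRCm38.p6, both strands). They occurred in 18% of those of genes that rose and 22% of those of genes that fell. Among changes of at least 1 they occurred in 21 of 57 (36.8%) for genes that rose and 23 of 102 (22.5%) for genes that fell. Among the 20 largest changes each way the order was the other, with 5 of 13 for the rises and 7 of 16 for the falls. The fast-fibre (45.5%) and slow or cardiac (41.2%) contractile lists, where more genes fell than rose, also held them often.

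The cofactors divided within families. Mef2c rose by 1.23 (SE 0.17), with 9.70, 9.60 and 8.41 in the scrambled and 10.52, 10.45 and 10.41 in the Plin2 siRNA arrays, so that the difference of 2.00 in palmitate came with a low scrambled array. Mef2d rose by 0.29 and by 0.81 on its other probe set. Mef2a fell by 0.23, but not without a BSA or an oleate array. Tead1 rose by 0.45 and Tead4, which is induced during differentiation, fell by 0.76. The repressor Snai2 rose by 0.99 (SE 0.07), and the E proteins Tcf4 and Tcf12, partners of Myod1, rose by 0.58 and 0.30, Tcf12 not without a BSA array. Pax7, the factor of satellite cells, stood at 0.20 (SE 0.08, limma adjusted p = 0.126).

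**Figure D4:**
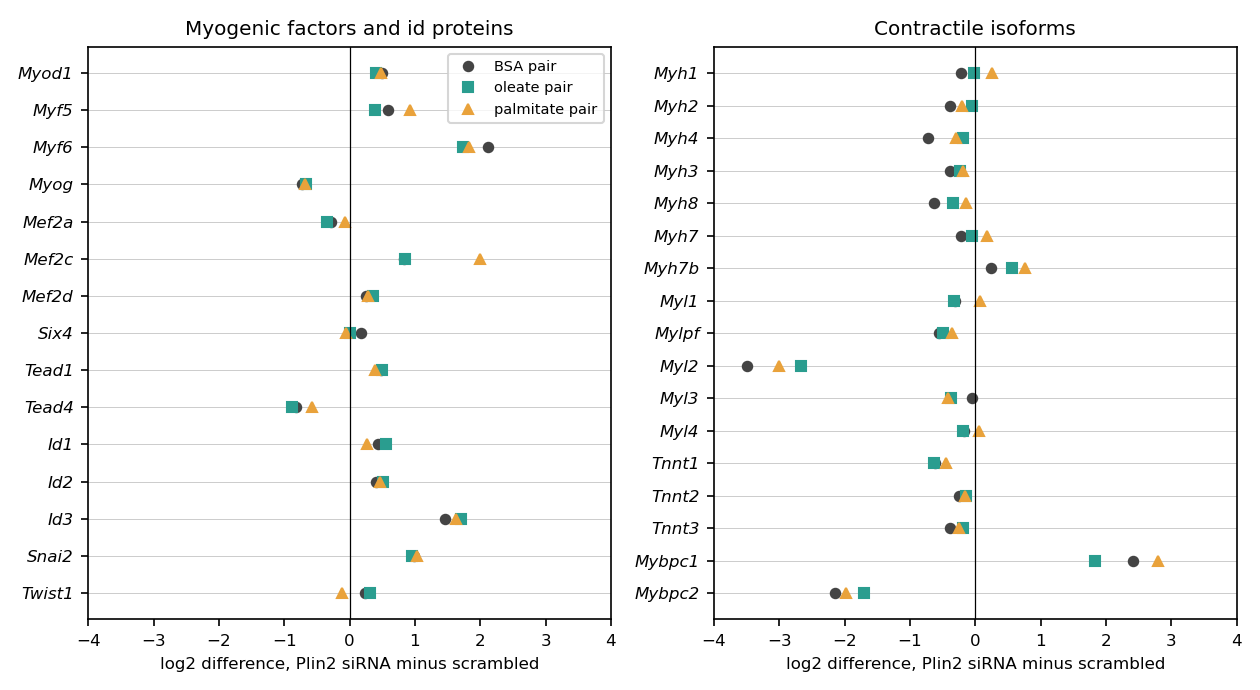
Log2 difference, Plin2 siRNA minus scrambled, in the BSA, oleate and palmitate pair for regulators of the muscle programme (left) and for contractile protein isoforms (right). Myf6, Id3 and Mybpc1 lie above 1.4 in every pair and Myl2 and Mybpc2 below -1.7, while most myosin heavy chains lie within 0.8 of 0.

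Contractile isoforms fell more often than they rose in fast, slow and developmental groups. Of 16 fast-fibre genes 8 fell (50%; 5 without a BSA array) and 1, the calcium pump Atp2a1, rose (0.23, but 0.12 and not passing without a palmitate array). Of 18 slow or cardiac genes 8 fell (44.4%) and 3 rose. Of 10 developmental genes 4 fell (1 without a BSA array) and 1 rose. Myosin heavy chains, the motors themselves, changed little: Myh3 (-0.27), Myh8 (-0.37) and Myh4 (-0.40) fell, each losing its call without a BSA array (Myh8 then stood at -0.24, as did Myh4), Myh7b rose by 0.52, and Myh1 (0.01), Myh2 (-0.21) and Myh7 (-0.03) did not pass. The skeletal and cardiac actins Acta1 (0.05) and Actc1 (-0.06), at levels above 13, did not pass either.

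Larger changes were measured for some regulatory and binding subunits. Myl2, the slow and cardiac regulatory light chain, stood at 8.09, 7.49 and 8.10 with scrambled and at 4.6, 4.82 and 5.10 with Plin2 siRNA, a fall of 3.05 (SE 0.14, limma adjusted p = 2.05e-07). Its fast counterpart Mylpf fell by 0.47 from a level above 12. The myosin-binding proteins went opposite ways. The slow form Mybpc1 rose from 8.25, 8.89 and 7.76 to 10.67, 10.72 and 10.56 (2.35, SE 0.13), and the fast form Mybpc2 fell from 7.12, 6.38 and 6.84 to 4.97, 4.67 and 4.87 (-1.95, SE 0.12). The cardiac form Mybpc3 stood at -0.07. Of the alpha-actinins, which cross-link actin at the Z-disc, Actn2 rose by 0.81 and Actn3, the fast isoform, fell by 0.48. The slow troponin Tnnt1 fell by 0.57, and the troponins Tnnt3 (-0.28), Tnni1 (-0.20) and Tnnt2 (-0.18) fell with calls that were lost without a BSA array.

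Z-disc, M-band and costamere genes, which anchor the filaments and tie them to the membrane, fell in 25 of 44 cases (56.8% against 8.8%), and 3 rose. Their median was -0.31, made of -0.39, -0.36 and -0.19 in the BSA, oleate and palmitate pairs. Csrp3, a LIM protein that senses stretch, stood at 9.66, 8.94 and 9.98 with scrambled and at 7.86, 7.54 and 7.91 with Plin2 siRNA (-1.75, SE 0.11). The ankyrin repeat proteins Ankrd2 (-1.29), Ankrd23 (-1.13) and Ankrd1 (-0.89), which also respond to stretch, and Klhl40 (-1.36), which stabilises thin filaments, fell too. Against this direction, Myot, which encodes the Z-disc protein myotilin, rose from 5.95, 5.40 and 5.16 to 8.02, 7.89 and 8.02 (2.47, SE 0.13), and Synpo2l rose by 0.53. Between 20 and 26 members of the list fell when any 1 array was left out, and 5 rose without an oleate array.

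The element bound by MEF2 factors was searched by its consensus in the same promoter windows, on both strands. It occurred in 3.02% of all promoters and in 26.5% of those of the Z-disc list: in 6 of the 23 genes that fell and had a promoter, 2 of 10 that did not pass and 1 of 1 that rose. Among all genes that fell it occurred in 2.96% and among all that rose in 2.63%. The stretches of the members that fell are shown, with the match in capitals. Whether MEF2 factors use these matches was not tested.
Myoz2: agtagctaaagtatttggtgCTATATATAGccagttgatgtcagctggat
Xirp2: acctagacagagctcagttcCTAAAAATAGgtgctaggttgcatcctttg
Synpo2: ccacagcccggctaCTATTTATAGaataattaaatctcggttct
Klhl41: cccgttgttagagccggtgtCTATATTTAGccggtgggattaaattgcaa
Myom3: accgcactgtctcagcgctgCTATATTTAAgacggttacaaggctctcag
Fhl2: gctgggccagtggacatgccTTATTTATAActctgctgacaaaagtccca
These lie, in GRCm38.p6, at chr3:123034991-123035040 on the minus strand (Myoz2), chr2:67445908-67445957 on the plus strand (Xirp2), chr3:123236356-123236399 on the minus strand (Synpo2) and chr2:69670037-69670086 on the plus strand (Klhl41). Those of Myom3 and Fhl2 lie at chr4:135759660-135759709 on the plus and chr1:43196763-43196812 on the minus strand. The match began 33 bases before the start in Myoz2, 35 in Myom3 and 31 in Fhl2, where a TATA box also usually lies, and the consensus can match both. It began 74 bases before the start in Xirp2, 63 in Klhl41 and 236 in Synpo2. Myoz2, which binds calcineurin at the Z-disc, fell by 1.06, the actin-binding Xirp2 by 0.75 and Synpo2 by 0.57, Klhl41 by 0.55, the M-band protein Myom3 by 0.49 and the LIM protein Fhl2 by 0.37.

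Genes of calcium release changed in both directions, 9 of 35 rising (25.7%) and 8 falling (22.9%; 4 without a BSA array). Casq1, the calcium store of the fast-fibre sarcoplasmic reticulum, fell from 11.15, 11.14 and 10.49 to 8.41, 7.90 and 8.41, a change of -2.69 (SE 0.16, limma adjusted p = 9.83e-07). Its slow counterpart Casq2 stood at -0.16 (SE 0.06) at levels above 11. The junctional proteins that bind calsequestrin rose: Trdn, triadin, by 0.99 and Asph, whose gene also encodes junctin, by 1.17. All 18 other probe sets of Trdn lay above 0 and 15 of them passed, with values from 0.03 to 1.87. Mrln, which encodes myoregulin, an inhibitor of the calcium pump, rose by 0.99, and the histidine-rich calcium binder Hrc fell by 0.57.

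Nerve-muscle junction genes rose in 9 of 21 cases (42.9%) and fell in 5 (23.8%; 3 without a BSA array). The enzyme that ends transmission, Ache, rose from 5.91, 6.19 and 5.58 to 7.33, 7.35 and 6.5 (1.17, SE 0.11), and Colq, the collagen tail that anchors it, rose by 1.16. For both, the palmitate arrays were the lowest of either siRNA. Receptor subunits went the other way, with Chrnd (-0.71), Chrnb1 (-0.39) and the fetal subunit Chrng (-0.34) falling. Etv5, a factor that drives synaptic genes, rose by 0.86. Of 25 ion channel genes 2 rose and 3 fell, among them Scn3b (-0.85), and the potassium channel Kcnj2 (0.74) stood at 0.39 and lost its call without a palmitate array.

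Of 24 fusion and differentiation genes 8 fell (33.3%; 4 without a BSA array) and 2 rose. Mymx, which encodes the small protein that opens the fusion pore, fell from 9.36, 9.38 and 9.19 to 8.34, 8.27 and 8.38 (-0.98, SE 0.08). The oxygen carrier Mb fell by 0.70, the integrin Itga7 by 0.73 and the cadherin Cdh15 by 0.62, and the junction proteins Jam3 and Jam2 rose by 0.84 and 0.47. Of 24 genes of undifferentiated myoblasts 7 rose and 7 fell (29.2% each). Atrophy genes rose in 5 of 20 cases: of the main ubiquitin ligases Fbxo32 rose by 0.40 and Trim63 fell by 0.51.

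Matrix and adhesion genes passed in both directions. Of 37 collagens and matrix genes 11 fell (29.7% against 8.8% of all genes) and 6 rose (16.2% against 8.31%; 2 without a BSA array). The mean level of each list in this paragraph was above 7.29, in the range of the highest group. In that group 1136 of 6646 genes rose and 1175 fell, so the shares that rose are near its background. Tenascin-C, Tnc, fell from 10.20, 9.78 and 10.58 to 8.75, 8.60 and 8.99 (-1.41, SE 0.08), Col18a1 by 1.21 and the cross-linking enzyme Lox by 0.63. Of 28 proteases and inhibitors 10 fell (35.7%), with Timp1 at -0.96 and Adam9 at -0.88, and 6 rose (21.4%), with Adam19 at 1.19. Integrin alpha chains moved both ways: Itga4 rose from 4.71, 5.22 and 4.95 to 6.49, 6.87 and 6.14 (1.54, SE 0.13) and Itga1 by 1.18, whereas Itga6 fell by 0.61 and Itga7 by 0.73. Of this list of 32, 7 rose (21.9%) and 8 fell (25%; 4 without a BSA array). Lama2, the laminin chain of mature muscle, rose by 0.85, and Lamb3 fell by 1.08.

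Signalling lists were led by a few members. In the Notch pathway 7 of 27 rose (25.9%) and 0 fell, although 3 fell without an oleate array and 1 without a palmitate array. Those that rose included the ligands Jag1 (0.82) and Jag2 (0.46), the receptor Notch3 (0.45, and 0.29 without an oleate array) and the target Hey1 (0.97). Among 45 TGF-beta and BMP genes 9 rose and 6 fell (11 without an oleate array). The ligands Bmp6 (6.12, 5.93 and 5.93 against 7.56, 7.36 and 7.50) and Bmp4 rose by 1.48 and 0.73, and the antagonist Fstl3 fell by 1.46. In the Wnt list the receptors Fzd8 (0.93), Fzd4 (0.88) and Fzd1 (0.45) rose and the ligands Wnt9a (-0.69), Wnt11 (-0.65) and Wnt4 (-0.52) fell, with 6 of 40 rising and 3 falling in all. The other probe set of Wnt4 gave -0.12 and did not pass. In the insulin-like growth factor list 6 of 17 rose (35.3%) and 2 fell. Binding proteins moved in opposite directions: Igfbp3 rose from 6.79, 6.28 and 6.41 to 8.99, 8.83 and 8.73 (2.36, SE 0.09, limma adjusted p = 5.7e-08) and Igfbp5 by 0.69, while Igfbp2 fell by 1.61 and Igfbp6 by 0.57. The receptor Igf1r rose by 0.53 and Igf2 by 0.42.

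Prostaglandin genes changed on both sides of the pathway. Ptgs2, the inducible cyclooxygenase, fell by 0.96, and Ptgis, which makes prostacyclin, fell from 10.08, 9.98 and 9.97 to 7.42, 7.30 and 7.20 (-2.70, SE 0.07, limma adjusted p = 3.07e-09). Hpgd, which inactivates prostaglandins, rose from 4.51, 5.37 and 5.00 to 7.26, 7.74 and 6.97 (2.37, SE 0.14). The prostaglandin D synthase Ptgds fell by 0.91. Thus 2 synthases and a cyclooxygenase were lower and 1 degrading enzyme higher in all 3 pairs. Of the 17 genes of the list 3 rose and 3 fell, and of those that rose only Hpgd is named here. These genes therefore do not give a direction for the whole pathway. In the NF-kB list 4 of 28 rose (1 without a BSA array) and 5 fell, with the chemokine Cxcl5 at 0.94 and Lcn2 at -1.04.

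Interferon-stimulated genes were examined because short RNA can trigger an interferon response. Every culture was given siRNA, so a response shared by both siRNAs would cancel in these changes. Whether short RNA triggered such a response was therefore not tested, and the values show only how the siRNAs differed. Of 30 interferon-stimulated genes, 6 fell (20%, and 2 in number without a BSA array) and 1, Gbp8, rose. Further guanylate-binding protein genes that this count leaves out, Gbp9 (1.52), Gbp4 (1.04) and Gbp11 (1.33), rose as well. Ifit1, which binds foreign RNA, stood at 5.78, 4.78 and 6.29 with scrambled and at 3.34, 3.35 and 3.73 with Plin2 siRNA (-2.14, SE 0.19, limma adjusted p = 1.9e-05). The 3 Plin2 siRNA values were near the low end of the scale, and the scrambled arrays varied by treatment with oleate the lowest. Cxcl10 fell by 1.04 and Stat2 by 0.43, the latter not without a BSA array. Among 15 sensors of foreign RNA Trim25 (0.78) and Mavs (0.33) rose and 0 fell; the sensors themselves, Tlr3 (-0.01), Ddx58 (-0.19), Ifih1 (-0.32) and Eif2ak2 (-0.05), did not pass. Of 13 genes of the RNA interference machinery 3 rose, Tnrc6c (0.63), Dicer1 (0.52) and Prkra (0.40), and 3 fell, Tnrc6b (-0.44), Ago4 (-0.37) and Xpo5 (-0.30). The calls of Prkra, Ago4 and Xpo5 were lost without a BSA array, which left 1 falling, and that of Mavs without an oleate array, where 1 sensor fell. Ago2, the slicing Argonaute, stood at 0.21 (SE 0.08, limma adjusted p = 0.102).

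Smaller lists added single genes. Of 21 circadian genes 6 fell (28.6%; 3 without a BSA array) and 0 rose, including Bhlhe40 (-1.0), Clock (-0.59) and Nr1d1 (-0.57), and 1 rose without an oleate array. Of 31 nuclear receptors 4 rose, led by Esr1 (0.85) and Nr2f2 (0.74), and 3 fell (5 without an oleate array, 2 without a BSA or a palmitate array). Of 23 imprinted genes 6 rose (26.1%), among them Peg3 (0.71) and Zim1 (0.69), neighbours on chromosome 7, and Cdkn1c fell by 0.59 (without a BSA array 2 fell). Among 32 secreted growth factors 2 rose (1 without a BSA array), with Angpt1 at 0.67, and 6 fell, with Hbegf at -0.79. Of 20 adhesion receptors 2 rose (1 without a BSA or a palmitate array) and 3 fell, Adgrg3 by 1.29.

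Housekeeping lists came next. Of 22 reference genes 2 rose (1 without a BSA or a palmitate array) and 2 fell (1 without a BSA array), 9.09% each, and the transferrin receptor Tfrc rose by 0.73 and Pgk1 fell by 0.36. Of 31 proteasome subunits 2 rose and 2 fell, but 0 did either without a BSA or a palmitate array, and 3 fell without an oleate array. Of 34 ribosomal proteins 8 rose (23.5%; 2 without a BSA array) and 0 fell, led by Rpl22 (0.69), with a list median of 0.09. Lysosome genes rose in 4 of 32 cases and fell in 4 (1 without a BSA array).

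Some of the largest changes lay in adjacent genes by RefSeq order. Of 79 genes that rose by at least 1 log2 unit, 25 had a neighbour that also rose (31.6%). The share was 22% among all placed genes that rose, of any size, and 15.7% among all 19852 genes placed. Of 118 that fell so far 36 had a neighbour that fell (30.5%), against 24% of all placed genes that fell and 16.7% of all placed. Part of the excess over all genes was thus present for changes of any size. In 9 adjacent pairs both genes moved the same way by at least 1, and these were picked for their values. On chromosome 3 Car3 and Car2 rose by 3.53 and 2.14. On chromosome 5 Gbp8, Gbp9, Gbp4 and Gbp11 stood in a row and rose by 3.06, 1.52, 1.04 and 1.33. On chromosome 8 Adgrg1 and Adgrg3 fell by 3.10 and 1.29, on chromosome 7 Sbk2 and Sbk3 by 2.57 and 1.02, and on chromosome 1 Casq1 and Pea15a by 2.69 and 1.58. Art3 and Cxcl10 fell together on chromosome 5, and Klhl13 and Wdr44 rose together on the X chromosome. The Gbp and Sbk genes are close copies whose probes could share transcripts, so their separate values are uncertain.

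Markers of the cell type were checked last. The myotube genes Acta1 (13.47 to 13.67 over the 6 arrays), Myh3 (12.56 and above), Des (11.85 to 12.32) and Ckm (11.44 to 11.91) were high with both siRNAs. However, Des fell by 0.25, Ckm by 0.19 and Myh3 by the amount given above. Myog and Tnnt3, the other genes chosen as myotube markers, also fell, as given above, and only Acta1 did not pass. Some defining genes of adipocytes, osteoblasts, endothelium and macrophages were near the low end of the array in all 6: Adipoq between 3.41 and 3.54, Lep between 3.67 and 4.01, Ptprc between 3.30 and 3.54, Csf1r between 3.70 and 3.95, Pecam1 between 3.81 and 4.15 and Ibsp between 3.48 and 4.04. This does not hold for the fibroblast list, given below, or the undifferentiated myoblast list. The latter had mean levels of 8.04 to 8.09 with scrambled and 8.08 to 8.12 with Plin2 siRNA. Of 18 adipocyte and 9 osteoblast markers 0 passed in limma (1 adipocyte marker fell without an oleate array), and the mean level of the adipocyte list was 5.10 to 5.27 with scrambled and 5.14 to 5.29 with Plin2 siRNA. Of 16 endothelial and macrophage markers 1 fell, Cd68 (-0.53), and without an oleate array 2 fell and 1 rose. Of 15 fibroblast markers 4 fell, led by the smooth muscle gene Cnn1 (-1.09), and 2 rose (0 without a BSA and 1 without a palmitate array), with mean levels of 8.62 to 8.75 and 8.57 to 8.58, and Tubb3 (-1.38) was among 3 of 13 Schwann cell and neuron markers that fell. In a culture, fewer myotubes and less RNA of a gene per myotube cannot be told apart.

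**Figure D5:**
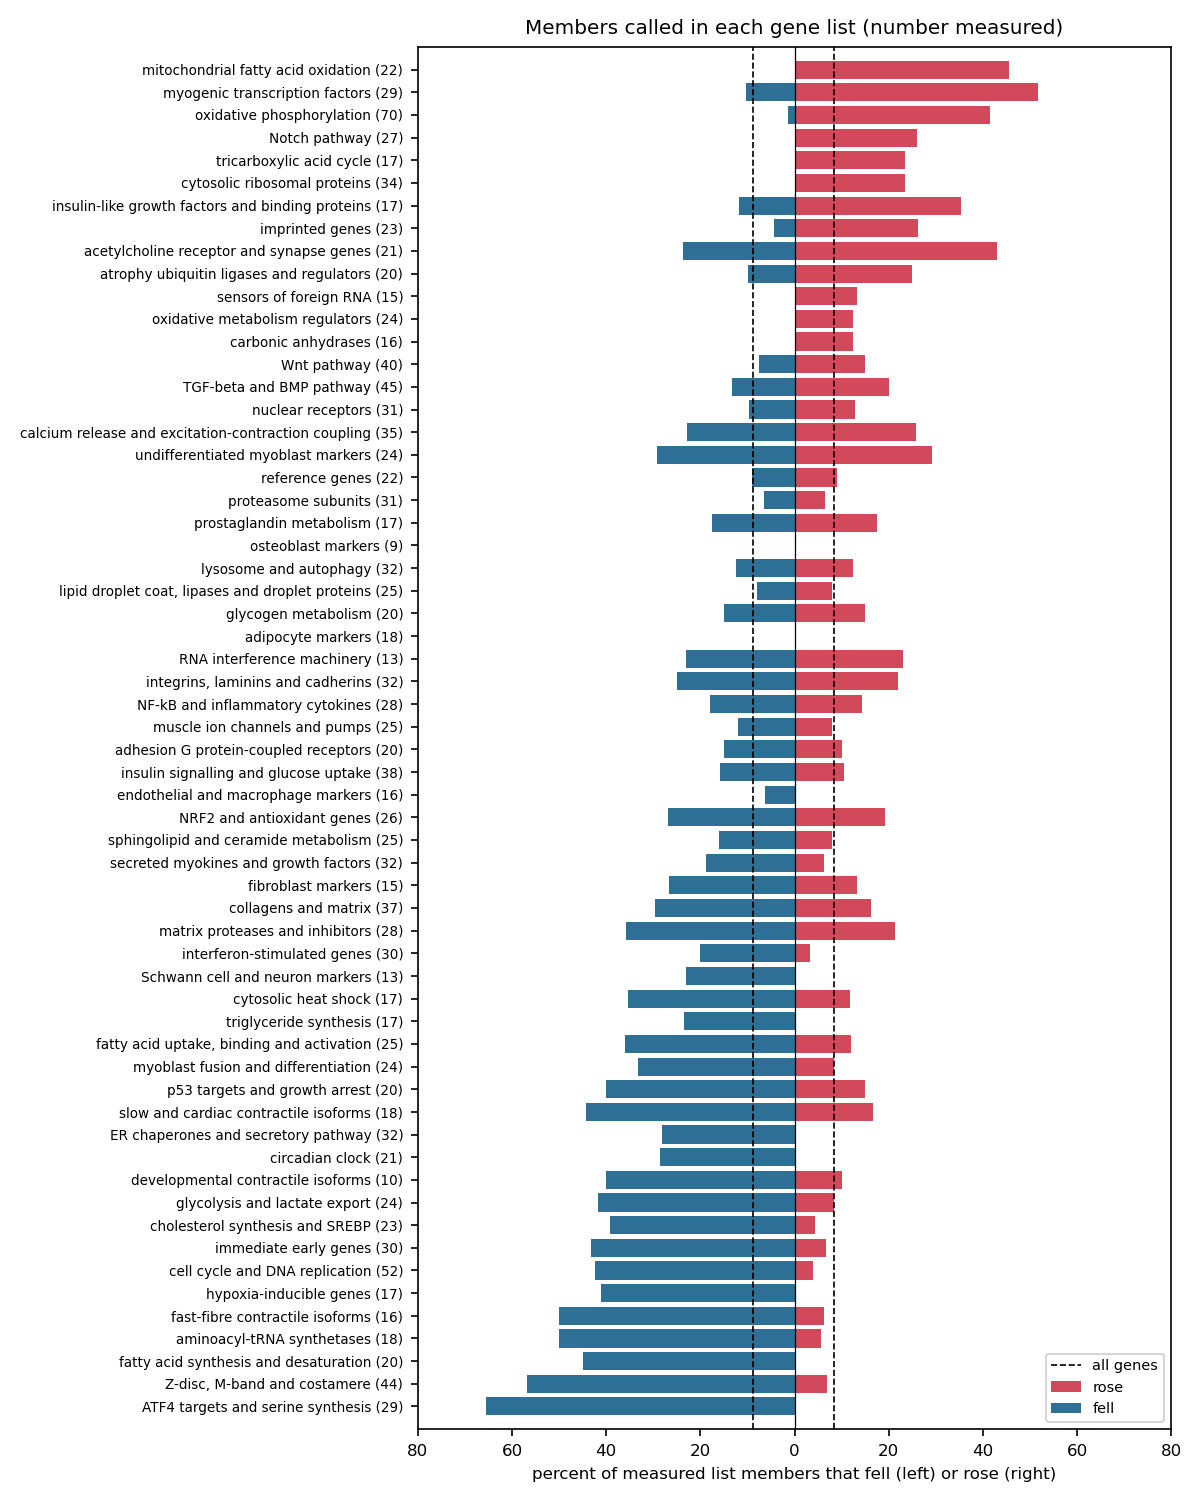
Percent of the measured members of each of 60 gene lists that fell (blue, left) or rose (red, right) with Plin2 siRNA, with the number measured in brackets. Lists are ordered by the percent that rose minus the percent that fell. Dashed lines mark the 8.8% of all genes that fell and the 8.31% that rose; the ATF4 list reaches 65.5% on the left and the myogenic factors 51.7% on the right.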

How the data were processed

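Total RNA from 6 cultures was measured on Affymetrix whole-transcript arrays. The deposited values are log2 expression per probe set, made by the authors with RMA, per the submitters' processing notes; for its version and any genome build, the sources used here say nothing. No value was filtered or rescaled. GEO's platform annotation tied 21789 probe sets to 1 symbol and 1621 to several, and did not list 12146, which are unnamed here.

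limma 3.58.1 in R 4.3.3 fitted treatment and siRNA on the 21789 probe sets (lmFit, then eBayes with an intensity trend), with Benjamini-Hochberg adjustment and a threshold of 0.05, leaving 2 residual and 9.21 prior degrees of freedom. Each treatment is thus a block, and the arrays are paired by treatment, as the labels give it. A second fit added an siRNA by fatty acid term. An exact permutation test of 3 arrays against 3 cannot go below p = 0.1. The fit was tested on simulated data. Gene order and promoters came from RefSeq GRCm38.p6, matched by Entrez ID for 19855 genes.

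The comparison and its 60 gene lists were chosen with earlier results of these data known, and counts over a list are descriptions. Named were Plin2, the 20 largest rises and falls of 1 sign in all pairs, without provisional symbols and predicted families, up to 4 genes per list and direction by the same criteria, and any member of the lipid droplet, insulin, myogenic, contractile and small RNA lists; neighbours, cell markers and promoter matches were named outside this rule. Alternatives covered the trend, the probe sets fitted, the filter, the scaling, the block, moderation and leaving out each array.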

Additional observations from a re-analysis of the deposited data

Results flagged for a closer look

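Probe sets without a listed gene carried signal too. With every probe set in 1 limma fit, 423 unlisted probe sets passed (3.48% of 12146), and they enter no result above. The median pair difference had 1 sign in BSA and the other sign in both fatty acids for 3 lists. For the RNA interference machinery it was -0.0805 (BSA), 0.258 (oleate) and 0.195 (palmitate). It was 0.0596, -0.107 and -0.161 for the NF-kB and inflammatory cytokine genes, and -0.0847, 0.0517 and 0.0726 for the proteasome subunits. These differences between treatments were not tested, since each rests on 1 array per condition.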

How the results depend on the processing

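The count of 3721 probe sets that passed (1657 genes up, 1755 down) was 2403 (1009 and 1215) without the intensity trend and 2159 (707 and 837) with all 35556 probe sets fitted. Leaving out 1 array gave 2213 to 3836 probe sets, 1013 to 1659 genes up and 1012 to 1849 down, lowest without a BSA array. With treatment as a block, its partner then adds nothing to the siRNA change, so each such fit drops a whole pair. These fits keep 1 residual degree of freedom, and their calls rest mostly on the variance shared across probe sets. The counts are therefore not separate checks of each array. A paired test without moderation called 0 genes (0 up and 0 down), with 3522 at an unadjusted p under 0.05, and Plin2 then had a change of -2.47 with an adjusted p of 0.174. Without the pairing, that is with no replicate block, 3167 probe sets passed (1420 genes up, 1500 down). Among the changes of named genes, 96 lost their call with all probe sets fitted, 60 without the trend, 30 without the block, 338 without moderation and up to 72 without a BSA array. The 40 largest changes passed in every alternative except the unmoderated test, no change named above turned its sign past the threshold, and the interaction count was 0 in each alternative run. Plin2 lay between -2.53 and -2.37 without any 1 array. With 1 array per condition, small changes of genes near background could not be resolved.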
